A study of Mus musculus with 4 samples.

Results

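The Id genes Id1, Id2, Id3 and Id4 and the E-protein genes Tcf3 (E2A), Tcf4 (E2-2) and Tcf12 (HEB) were described in NSCL61. This mouse line of glioma-initiating cells derives from p53-deficient neural stem cells that were transformed with an oncogenic HRas. The genes were found by their symbol, or an older synonym, in the platform annotation, which gave 8 probes for these 7 genes among 23473 probes in all. The genes had been picked with their values on these arrays already known, so their levels and differences are a description and carry no test. Id1 and Id3 were lower and Id2 and Id4 were higher in cells with a short hairpin RNA (shRNA) against Eva1, while the E-protein probes differed little between the groups.

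Control cells and Eva1 shRNA cells were compared, with 2 arrays each. The control arrays are titled with the name of the line alone, and the series title speaks of a control hairpin. The Eva1 shRNA arrays are titled as the line with shRNA, and the series title assigns that shRNA to Eva1, a cell adhesion gene of the immunoglobulin superfamily now named Mpzl2. All 4 samples are labelled as C57BL6 mouse brain cells of developmental stage P0. All 4 titles name NSCL61, so the samples share the oncogenic background of the line. Transfected cells were selected in hygromycin, for 1 week according to the treatment protocol and for 2 weeks according to the growth protocol. Amplified RNA carrying Cy5 was hybridised, without a second colour, to a Toray 3D-Gene mouse chip. A single hairpin name is given, and no label states separate cultures for the replicate arrays, so the p-values cover the spread between these samples alone, which may be technical.

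Id proteins are helix-loop-helix proteins that lack the basic region needed to bind DNA. They bind E-proteins, which otherwise pair with themselves or with tissue-restricted basic helix-loop-helix (bHLH) factors and bind the E-box sequence CANNTG, and so hold back differentiation. Id1 and Id3 are known as direct targets of bone morphogenetic protein (BMP) signalling through SMAD proteins, and Id genes are known to maintain neural stem cells and glioma-initiating cells.

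Promoter sequences from RefSeq (GRCm38.p6) were taken for 5 of the 7 members, without Id1 and Tcf4, in 7 windows of 250 bases before an annotated start. Those of Id2 and Id4, the Id genes that were higher with Eva1 shRNA, and of Id3, which was lower, are shown because these genes differed in opposite directions. Capitals mark matches to the E-box CANNTG and to GGCGCC, a GC-rich sequence found in BMP-responsive elements; both motifs read the same on either strand.
Id2, chr12:25096093-25096342, minus strand: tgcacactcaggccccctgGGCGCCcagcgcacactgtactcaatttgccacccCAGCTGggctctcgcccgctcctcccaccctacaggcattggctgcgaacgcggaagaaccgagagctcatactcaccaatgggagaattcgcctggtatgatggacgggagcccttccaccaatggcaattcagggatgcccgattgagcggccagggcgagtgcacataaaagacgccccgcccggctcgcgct
Id4, chr13:48260866-48261115, plus strand: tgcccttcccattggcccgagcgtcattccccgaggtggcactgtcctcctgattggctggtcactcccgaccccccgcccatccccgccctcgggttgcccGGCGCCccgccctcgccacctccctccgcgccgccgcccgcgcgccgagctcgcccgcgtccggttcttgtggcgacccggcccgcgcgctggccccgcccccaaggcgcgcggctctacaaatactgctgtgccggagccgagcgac
Id3, chr4:136143572-136143821, plus strand: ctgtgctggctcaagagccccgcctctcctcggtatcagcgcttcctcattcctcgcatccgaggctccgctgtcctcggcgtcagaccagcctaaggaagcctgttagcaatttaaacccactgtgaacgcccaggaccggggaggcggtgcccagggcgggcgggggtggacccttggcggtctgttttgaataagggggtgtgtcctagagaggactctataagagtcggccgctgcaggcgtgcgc
The Id2 window held 1 E-box, CAGCTG, 196 bases before the start, and 1 GGCGCC, 231 bases before it. The Id4 window held 1 GGCGCC, 148 bases before the start, and no match to CANNTG. The Id3 window held no match to either. Over all 32851 promoter windows of this length, 66.2% held CANNTG, 13% held CAGCTG and 9.59% held GGCGCC. The Tcf3 window held the E-box CACTTG 54 bases before the start, and of the 3 Tcf12 windows 1 held CAAGTG and 1 held CAGCTG. None of the 7 windows held CACCTG or its complement CAGGTG, which stand in 17.2% of all windows. None held TATAAA or its complement TTTATA (12.4% of all windows). The EGR1 sequence GCGTGGGCG or its complement CGCCCACGC (0.536%) and the cyclic AMP response element TGACGTCA (1.55%) were not in them either. GC content was 62.8% for Id2, 75.6% for Id4 and 62.8% for Id3, against a median of 52.4% over all windows. A match or its lack describes only the letters of these windows.

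The arrays gave values for 20662 to 21842 of the probes, with 6.95% to 12% of cells blank, and the deposited intensities were scaled to an array median near 25. Mpzl2 had intensities of 55.0 and 54.4 in control cells against 8.20 and 6.21 in Eva1 shRNA cells, in the direction of the labels (log2 change -3.12, SE 0.16, limma adjusted p = 0.00105). Of 13777 genes tested, 25.9% passed limma's two-sided test at an adjusted p under 0.05, 12.5% higher and 13.5% lower. With the authors' scaling in place of quantile normalization 67.7% of the calls were higher, against 48.1%, and the median change of the genes tested was 0.17 in place of -0.01. Neural stem cell markers were present in part: Nes had intensities of 532 and 537 in the control cells and of 435 and 430 in the Eva1 shRNA cells, and Prom1 was blank on 1 control array. None of the 5 astrocyte or 5 endothelial markers stood above an intensity of 25 on all 4 arrays, and Gfap, Aqp4, Slc1a3, Pecam1, Cdh5 and Tek were each blank on at least 1 array.

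The Id genes are described first, with deposited intensities and then log2 levels after quantile normalization, on which log2 changes are Eva1 shRNA minus control. All standard errors (SE) in this text come from limma's fit, which draws each gene's variance toward that of all genes. They therefore differ from what the printed SDs of a gene alone would give. All 8 member probes had a value on all 4 arrays. After normalization the groups did not overlap for 5 of the 8 probes, the 4 Id genes and 1 E-protein probe, beside 66.7% of all genes tested. The groups were at least 2-fold apart without overlap for 4 of the 8, all of them Id genes, beside 12.1% of all genes tested. By direction, the 2 Id genes that were higher stand beside 5.41% of genes at least 2-fold higher and 32.6% higher at any distance without overlap, and the 2 that were lower beside 6.64% and 34.1%. Nothing is read from these counts, since the members were chosen on this contrast.

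Id1 had intensities of 1055 and 841 in control cells against 489 and 457 in Eva1 shRNA cells. Both control arrays stood above both Eva1 shRNA arrays, and the control arrays were the further apart. The log2 level of Id1 was 9.95 ± 0.21 in control and 8.80 ± 0.02 in Eva1 shRNA cells (SD, n = 2 each), a change of -1.16 with a standard error of 0.16, or 2.23-fold lower. With 1 array left out the change ran from -1.30 to -1.01.

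Id3, often co-regulated with Id1, was lower as well. Its intensities were 612 and 500 in control cells and 264 and 167 in Eva1 shRNA cells. The Eva1 shRNA arrays differed from each other by a factor of 1.58, the widest spread within a group among the members, yet both stood below the controls. The log2 level was 9.19 ± 0.19 and 7.63 ± 0.43 (SD, n = 2 each), a change of -1.56 (SE 0.24), or 2.94-fold lower, and it ran from -1.86 to -1.25 with 1 array left out.

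Id2, an Id protein known to bind the retinoblastoma protein as well as E-proteins, was dim in the control cells and higher with Eva1 shRNA. Its intensities were 31.8 and 26.4 on the control arrays, close to the array median of 25, and 243 and 167 in Eva1 shRNA cells. Both Eva1 shRNA arrays stood far above both controls. The log2 level was 4.96 ± 0.23 and 7.56 ± 0.34 (SD, n = 2 each), a change of 2.61 (SE 0.22), or 6.09-fold higher. A constant of 16 intensity units, added ahead of the log2 to damp dim probes, brought the change to 2.12.

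Id4, known for roles in neural precursor division and in astrocyte and oligodendrocyte development, had the closest replicates of the Id genes over both groups. Its intensities were 133 and 129 in control cells and 603 and 621 in Eva1 shRNA cells. The arrays of each group nearly coincided, and the groups lay wide apart. The log2 level was 7.12 ± 0.04 and 9.18 ± 0.08 (SD, n = 2 each), a change of 2.06 (SE 0.14), or 4.17-fold higher.

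**Figure D1:**
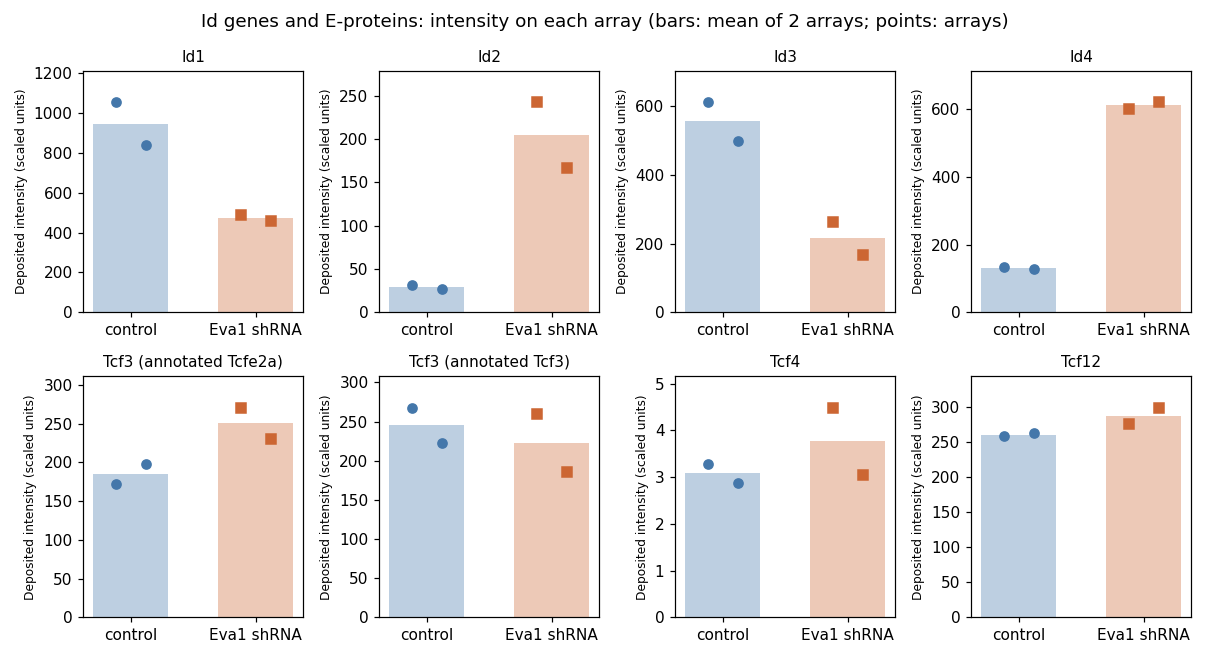
Deposited intensity (scaled units, each panel with its own axis from 0) of the 8 probes on the 2 control and 2 Eva1 shRNA arrays, with bars at the group means. Id1 and Id3 stood lower and Id2 and Id4 higher on both Eva1 shRNA arrays, whereas the probe annotated Tcf3 and the Tcf4 probe overlapped between groups.

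The log2 ratios between Id genes follow from these changes and are given as values. The log2 ratio of Id1 to Id3 differed by 0.40 between the groups, Eva1 shRNA minus control, and that of Id2 to Id4 by 0.55. The ratio of Id1 to Id2 differed by -3.76, that of Id1 to Id4 by -3.22, that of Id3 to Id4 by -3.62 and that of Id2 to Id3 by 4.16. The SD of these 6 ratios within a group ran from 0.02 to 0.51 on the log2 scale. The SD of the Eva1 shRNA arrays was 0.41 for the ratio of Id1 to Id3 and also for that of Id2 to Id4, so the difference within either pair was not far from the spread between replicates. Probes differ in how they bind their targets, so these ratios show unequal change and not which Id transcript was the most abundant.

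The E-proteins are the partners that Id proteins bind. Tcf3 encodes the E12 and E47 proteins. The probe annotated with its older symbol Tcfe2a had intensities of 172 and 198 in control cells against 271 and 230 in Eva1 shRNA cells. Both Eva1 shRNA arrays were above both controls, but the nearest arrays of the 2 groups, at log2 levels of 7.70 and 7.80, lay closer than the arrays within either group. The log2 level was 7.62 ± 0.12 and 7.89 ± 0.12 (SD, n = 2 each), a change of 0.27 (SE 0.15), and 0.44 with the authors' scaling, under which the median change of all genes was 0.17.

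A further probe is annotated Tcf3, a symbol that was also an older name of Tcf7l1, an unrelated mediator of Wnt signalling. Since the annotation uses Tcfe2a beside it, which of these genes that probe measures cannot be told apart here. Its intensities were 268 and 223 in control and 260 and 186 in Eva1 shRNA cells, and the groups overlapped. Its change was -0.32 (SE 0.21), opposite in sign to that of the Tcfe2a probe, and ran from -0.53 without Eva1 shRNA array 1 to -0.10 without Eva1 shRNA array 2.

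Tcf12, which pairs with proneural factors in the developing brain, had intensities of 259 and 263 in control cells against 277 and 300.0 in Eva1 shRNA cells. These deposited values did not overlap, but after normalization the log2 levels of 8.12 ± 0.01 and 8.08 ± 0.11 (SD, n = 2 each) did. The change was -0.03 (SE 0.14) and turned to 0.14 with the authors' scaling and to 0.05 without Eva1 shRNA array 1.

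Tcf4, the E-protein linked to interneuron and plasmacytoid dendritic cell development, had intensities of 3.28 and 2.88 in control and of 4.49 and 3.05 in Eva1 shRNA cells. All 4 values were near the lowest intensities of the arrays, 1.19 to 1.44, and the groups overlapped. The change of 0.08 (SE 0.22) turned negative without control array 2 (-0.08) or Eva1 shRNA array 1 (-0.14). At this signal no difference in Tcf4 was detectable. Tcf4 has also been an alias of Tcf7l2, which has a probe of its own on the chip.

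**Figure D2:**
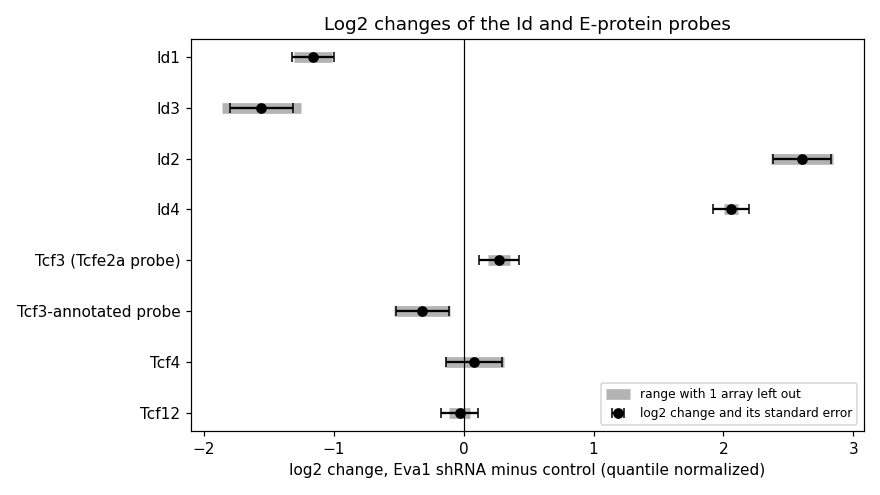
Log2 change (Eva1 shRNA minus control, quantile normalized) of the 8 probes. Bars show the standard error of limma's fit, and grey bands the range with 1 array left out in turn. The bands of Tcf4 and Tcf12 cross 0. Those of the 4 Id genes cannot cross it, since their groups do not overlap.

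The genes with the most similar pattern were taken as those with the smallest Euclidean distance over the 4 arrays between log2 values centred on each gene's mean, among 6760 other genes above the median level. Nearest to Id1 were Cpt1c (distance 0.059, change -1.16) and Rcan2 (0.067, -1.15). Nearest to Id3 were Tigd2 (distance 0.27, change -1.35) and Nupr1 (0.30, -1.62). Id3 thus had no gene as close to it as Id1 had. Nearest to Id2 were the sugar transporter gene Slc2a6 (distance 0.10, change 2.52) and the growth factor gene Fgf7 (0.18, 2.47). Nearest to Id4 were the kinase gene Prkd1 (distance 0.067, change 2.01) and the water channel gene Aqp5 (0.074, 2.09). Among the E-proteins, the Tcfe2a probe was nearest to Nufip2 (0.022) and Commd2 (0.024) and Tcf12 to Hprt (0.022) and Rpl39 (0.026). The probe annotated Tcf3 was nearest to Hpse (0.076) and Apol6 (0.086), out of 6761 genes, as for Tcf4, which was nearest to Cfap97 (0.060) and Cdk2 (0.084). With 4 arrays in 2 groups, this distance is set for the most part by the size of the difference between groups.

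Genes of the BMP-SMAD pathway, which drives Id transcription, passed the test at about the share seen over all genes. Like the lists below, this list was chosen with earlier results of these data known. The counts and shares of these lists are therefore a description. Of 33 genes on the list 30 had a named probe and 25 were tested, of which 4 rose and 2 fell while 19 stayed short of the threshold. This is 24%, beside 25.9% of all genes, and the median change was 0.18 beside -0.01. None of the 4 tested ligands passed limma's test, also at an unadjusted p under 0.05 (0 of 4). Bmp6, the one ligand above the array median and named after its values were seen, had intensities of 147 and 131 in control and of 127 and 128 in Eva1 shRNA cells, a change of -0.31 (SE 0.15).

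The receptor gene Bmpr1a and the transducer gene Smad1 rose. Smad1, a SMAD that BMP receptors phosphorylate, had intensities of 37.5 and 42.9 in control and of 76.2 and 81.5 in Eva1 shRNA cells. Both Eva1 shRNA arrays were above both controls, with a change of 0.78 (SE 0.15, limma adjusted p = 0.0191). Bmpr1a, a type I BMP receptor, went from 47.2 and 55.6 to 105 and 79.5, a change of 0.65 (SE 0.18, limma adjusted p = 0.0494). That call lay at the threshold and was lost with any array left out (limma adjusted p = 0.0821 to 0.221), with median centring (0.0525), with blank cells filled (0.0799) and with the replicate number as a block (0.0748). The call of Smad1 was lost without control array 1 (0.0731), Eva1 shRNA array 1 (0.0754) or Eva1 shRNA array 2 (0.108).

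Of 10 tested inhibitors of the pathway 2 rose, 2 fell and 6 did not pass, 40% beside 25.9% of all genes, with a median change of 0.04. Smad7, an inhibitory SMAD induced by the signal it restrains, fell from 87.8 and 95.9 to 34.3 and 35.1, a change of -1.61 (SE 0.14, limma adjusted p = 0.00246). Smurf1, a ubiquitin ligase that removes SMADs, fell from 58.4 and 55.3 to 25.9 and 24.2, a change of -1.37 (SE 0.14, limma adjusted p = 0.00353). In both genes the arrays of a group lay close together and the groups lay apart.

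Bambi, a decoy receptor, rose from 23.9 and 26.1 to 111 and 101, a change of 1.89 (SE 0.14, limma adjusted p = 0.00161). The calls of Smad7, Smurf1 and Bambi held whichever array was left out. Fst (follistatin) rose from 2.90 and 4.90 to 9.28 and 8.12, a change of 0.99 (SE 0.24, limma adjusted p = 0.0355). All of these Fst values were under the array median, and the change was 0.26 and not called with 16 units added (0.0667). Fst was also lost with blank cells filled (0.0682) and without control array 1 (0.0741), Eva1 shRNA array 1 (0.151) or Eva1 shRNA array 2 (0.116). The pathway's count of 6 calls became 3 without either Eva1 shRNA array.

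Smad6 (change 0.04) and the BMP targets Msx1 (0.41) and Msx2 (0.40), named after their values were seen, did not pass the test. Msx2 had an unadjusted p under 0.05 in limma. A link between the pathway genes and the levels of the Id genes was not tested. Msx1 and Msx2 had intensities of 3.78 to 7.28 on all 4 arrays, far under the array median.

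**Figure D3:**
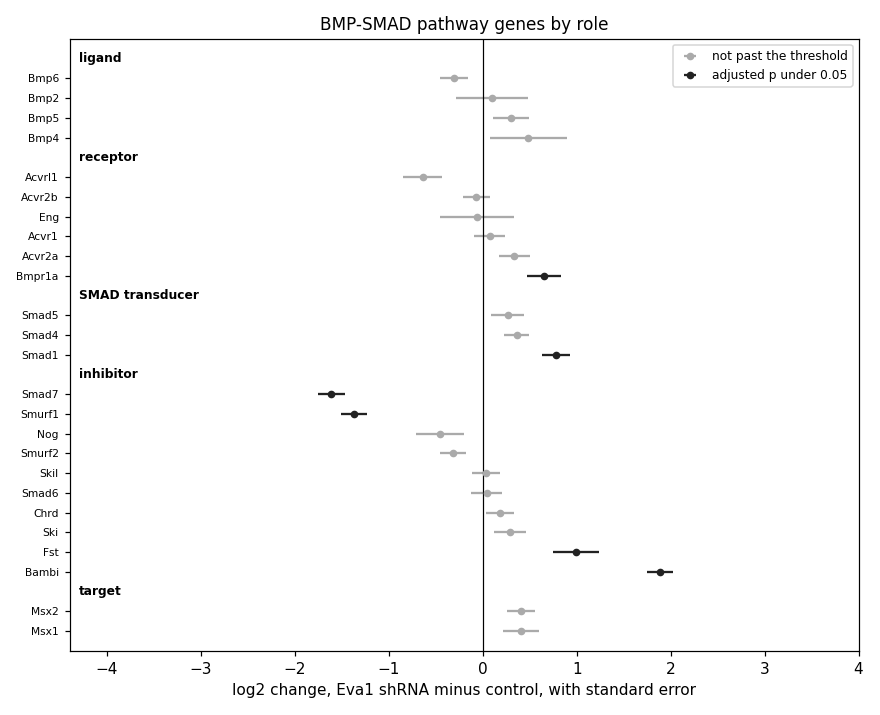
Log2 change (Eva1 shRNA minus control) with its standard error for the 25 tested genes of the BMP-SMAD pathway, grouped by role; dark points passed limma's test at an adjusted p under 0.05. The inhibitors Smad7 and Smurf1 fell and Fst and Bambi rose, and no ligand passed.

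Tissue-restricted bHLH factors, the other partners of E-proteins, were mostly at low intensity. The list held them together with bHLH repressors. Of 46 bHLH genes on it 42 had a named probe and 33 were tested, of which 3 rose, 3 fell and 27 did not pass. This is 18.2%, beside 25.9% of all genes, and the median change was 0.03. Of the 24 tested tissue-restricted factors alone 3 rose, 1 fell and 20 did not pass, 16.7%. The proneural genes Neurog2 and Neurod1 were blank on at least 1 array, and Olig2 stood at 3.49 to 7.0 on all arrays. Neurog1, a proneural gene above the array median, had intensities of 28.0 and 26.9 in control and of 45.2 and 42.7 in Eva1 shRNA cells, a change of 0.48 (SE 0.14) that did not pass (limma adjusted p = 0.0577). These proneural genes were named after their values were seen.

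Scx (scleraxis), the bHLH factor of tendon precursors, rose from 94.1 and 89.6 to 885 and 637, a change of 2.87 (SE 0.19, limma adjusted p = 0.00123). It had the largest change of the bHLH list, and its call held whichever array was left out. Ptf1a, a factor of pancreas and of inhibitory neurons, rose from 54.5 and 45.4 to 107 and 109, a change of 0.94 (SE 0.17, limma adjusted p = 0.0146). Its call was lost without Eva1 shRNA array 1 (0.0748) or 2 (0.0827). Ferd3l rose from 21.6 and 18.8 to 36.2 and 34.3, a change of 0.60 (SE 0.16, limma adjusted p = 0.0459), or 0.37 with 16 units added. Its call was lost with any array left out (0.0575 to 0.173), with the replicate number as a block (0.0664) and with blank cells filled (0.0731).

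Bhlhe22, a repressor-type neuronal bHLH factor, fell from 23.9 and 18.7 to 8.64 and 11, a change of -1.33 (SE 0.23, limma adjusted p = 0.0129), or -0.63 with 16 units added. It was lost without control array 1 (0.0545) or Eva1 shRNA array 1 (0.0709). Twist1 (213 and 187 against 229 and 218) and Twist2 (437 and 425 against 463 and 465), both named after their values were seen, were bright without passing, with changes of 0.00 and -0.07.

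Among 9 tested bHLH repressors Hey1 and Bhlhe40 fell, 0 rose and 7 did not pass in limma, 22.2% beside 25.9% of all genes; at an unadjusted p under 0.05, 2 were higher and 2 lower. Hey1, a target of Notch and of BMP signalling, fell from 365 and 328 to 63.0 and 62.2, a change of -2.64 (SE 0.14, limma adjusted p = 0.00105). The groups lay wide apart, and the call held whichever array was left out. Bhlhe40, a clock and hypoxia-responsive repressor, fell from 253 and 259 to 165 and 163, a change of -0.81 (SE 0.14, limma adjusted p = 0.0125), and was lost without Eva1 shRNA array 1 (0.0818) or 2 (0.0713). Hes1 and Hes5, the main Notch effectors of neural stem cells and named after their values were seen, had changes of 0.07 (SE 0.17) and 0.03 (SE 0.14). The count of 6 calls became 2 and 3 without Eva1 shRNA array 1 and 2.

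**Figure D4:**
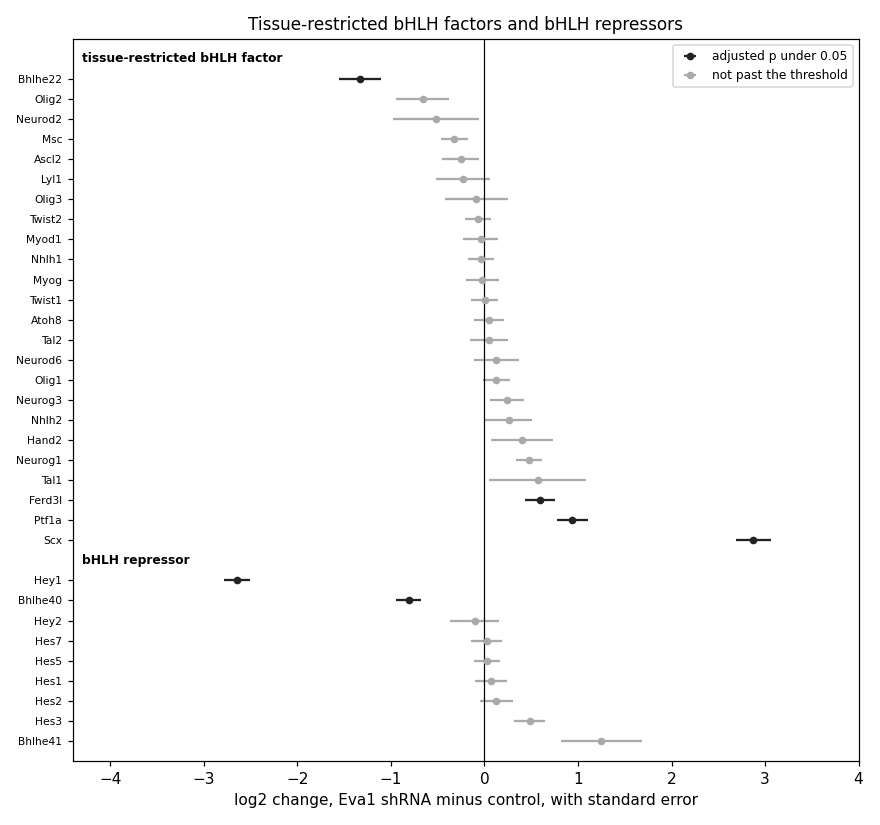
Log2 change (Eva1 shRNA minus control) with its standard error for 33 tested bHLH genes; dark points passed limma's test at an adjusted p under 0.05. Scx stands at 2.87 and Hey1 at -2.64, and 27 genes did not pass.

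Genes that act on Id and E-proteins or bind them were tested as a further list. Of 21 genes 20 had a named probe and 18 were tested, of which 4 rose, 1 fell and 13 did not pass, 27.8% beside 25.9% of all genes, with a median change of 0.11. The transcriptional regulators Egr1 (0.04), Atf3 (0.41) and Myc (-0.10) did not pass in limma, and 1 of the 3, Atf3, had an unadjusted p under 0.05.

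Usp1, the deubiquitinase that stabilises Id proteins, rose from 95.3 and 132 to 355 and 318, a change of 1.40 (SE 0.19, limma adjusted p = 0.00736). Both Eva1 shRNA arrays were far above both controls, although the call was just lost without Eva1 shRNA array 1 (0.0532). Its cofactor gene Wdr48 (0.20) and Fzr1 (0.00), an activator of the anaphase-promoting complex that marks Id proteins for degradation, did not pass. Rb1, the retinoblastoma gene, rose from 28.1 and 23.0 to 53.5 and 53.2, a change of 0.89 (SE 0.18, limma adjusted p = 0.0205). Its call was lost without control array 2 (0.0572), Eva1 shRNA array 1 (0.094) or Eva1 shRNA array 2 (0.102).

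The E-protein corepressor genes Runx1t1 and Cbfa2t3 (ETO and ETO2) moved in opposite directions at low signal. Runx1t1 rose from 1.48 and 3.47 to 9.54 and 7.63, a change of 1.83 (SE 0.44, limma adjusted p = 0.0336), and Cbfa2t3 fell from 6.79 and 7.69 to 1.96 and 2.87, a change of -1.77 (SE 0.22, limma adjusted p = 0.00541). All of these values were under the array median, and with 16 units added the changes were 0.38 and -0.38. The change of Runx1t1 was 1.16 without control array 1 and 2.51 without control array 2. Its call was lost with blank cells filled (0.0549) and without Eva1 shRNA array 1 (0.141) or 2 (0.106). Crebbp, a coactivator gene, rose from 8.62 and 9.31 to 16.1 and 18.8, a change of 0.72 (SE 0.17, limma adjusted p = 0.032), or 0.32 with 16 units added. It was lost with any array left out (0.0664 to 0.150) and with blank cells filled (0.0572). The list's 5 calls became 3 without control array 2, 1 without Eva1 shRNA array 1, 2 without Eva1 shRNA array 2 and 3 with blank cells filled.

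Of 9 genes known as targets of E-proteins or Id proteins 8 had a named probe and were tested. In limma 0 rose, 3 fell and 5 did not pass. At an unadjusted p under 0.05 there were also 0 higher and 3 lower. This is 37.5%, beside 25.9% of all genes (12.5% higher and 13.5% lower), and the median change was -0.47 beside -0.01. No shared direction of the list is read from 3 called genes.

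Cdkn2a, whose products p16Ink4a and p19Arf restrain the cell cycle, fell from 1176 and 995 to 194 and 212, a change of -2.58 (SE 0.16, limma adjusted p = 0.00116). The probe's place in the gene is not given, so the products are not told apart. Cdkn1a, which encodes the kinase inhibitor p21 and is activated by E-proteins, fell from 293 and 342 to 141 and 185, a change of -1.16 (SE 0.21, limma adjusted p = 0.0148), and was lost without control array 2 (0.0611) or Eva1 shRNA array 1 (0.0731). Thbs1 (thrombospondin), a gene known to be repressed by Id1, fell from 272 and 243 to 49.3 and 53.2, a change of -2.51 (SE 0.16, limma adjusted p = 0.00116). A link between the changes of Thbs1 and Id1 was not tested. The calls of Cdkn2a and Thbs1 held whichever array was left out. Rap1gap, a gene that Id proteins are known to restrain in neural stem cells, had a change of 0.17 (SE 0.19) and did not pass.

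**Figure D5:**
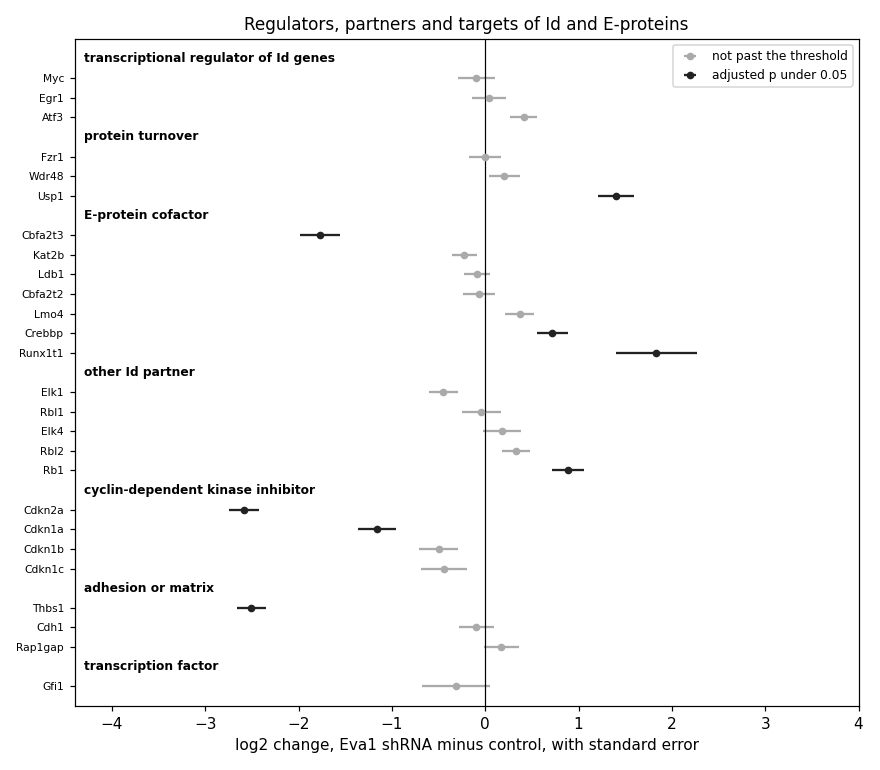
Log2 change (Eva1 shRNA minus control) with its standard error for the tested regulators, partners and targets of Id and E-proteins; dark points passed limma's test at an adjusted p under 0.05. Cdkn2a and Thbs1 stand at -2.58 and -2.51 and Usp1 at 1.40.

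Markers of other cell types were measured beside these results. Of 5 microglia and blood markers 3 were tested and Cd68 fell, with summed intensities of 177 to 208 in control and 113 to 116 in Eva1 shRNA cells, and Ptprc and Itgam were blank on 2 arrays each. That lower sum was of Cd68 (181 and 148 against 77.3 and 89.3), while Cx3cr1 (0.54) and Aif1 (-0.09) did not pass. Of 6 oligodendrocyte lineage markers 4 were tested and Pdgfra fell, with sums of 122 to 125 and 85.3 to 87.0. Of 5 neuron markers 4 were tested and Tubb3 rose, with sums of 42.6 to 44.7 and 65.5 to 85.3. That higher sum was of Tubb3, while Dcx (-0.11), Map2 (-0.26) and Stmn2 (-0.28) had changes of the opposite sign and did not pass. Of 5 fibroblast and mural markers all were tested and Pdgfrb rose, with sums of 803 to 887 and 1109 to 1243, mostly of Col3a1 (change 0.50, not called). Dcn had intensities of 117 and 93.0 in control and of 55.3 and 15.5 in Eva1 shRNA cells, a change of -2.02 (SE 0.57) that did not pass (limma adjusted p = 0.0533), and Lum (-0.56) and Col1a1 (-0.15) did not pass either. The 5 endothelial markers, of a cell type known for high Id1 and Id3, summed to 23.5 to 25.1 and 22.1 to 23.9, and neither of the 2 tested passed limma's test, at an unadjusted p under 0.05 either. Of 6 neural stem cell markers 4 were tested and Fabp7 fell, Sox2 had no named probe, and the sums, mostly of Vim (change 0.33, not called), were 15935 to 17016 and 20761 to 26589, while Nes (-0.47) and Msi1 (-0.24) had changes of the opposite sign and did not pass. The 5 astrocyte markers summed to 30.6 to 31.3 and 32.2 to 38.3, and of the 2 tested 0 passed in limma and 1 had an unadjusted p under 0.05. The part of these markers in the Id and E-protein values was not tested. In such bulk RNA, fewer cells of a type and less RNA per cell cannot be told apart.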

How the data were processed

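The deposited intensity values, on a linear scale, had been scaled by the authors to a median near 25 on each array, as the values show; the scanner, background correction and blank-cell rule were not given in the sources used here. Of 23473 probes 16631 had a gene symbol in the platform annotation and 6842 had none. The symbols of 3947 probes were updated through RefSeq (GRCm38.p6). The 59 probes whose symbol was an older name of several genes kept it as annotated. A further 14 probes whose symbol could stand for 2 genes, the probe annotated Tcf3 among them, were kept apart.

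Log2 intensities of the 19199 probes with a value on all 4 arrays were quantile normalized, each gene was represented by its brightest probe, and 13777 genes were compared with lmFit and eBayes of limma 3.58.1 in R 4.3.3, two-sided, with Benjamini-Hochberg adjustment over all genes and a threshold of 0.05. The code of the fit was also run on simulated data with independent noise in each gene, which does not bear on the calls made here. Precision is limited by the number of arrays (2 residual degrees of freedom). Standard errors are those of limma's fit, with each gene's variance drawn toward that of all genes.

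The members and gene lists were chosen with earlier results of these data known. Named were all members, Mpzl2, the called genes of each list, up to 4 in each role by smallest p, and the 2 genes nearest to each member; other genes were named after their values were seen. Alternatives were the authors' scaling, median centring, 16 intensity units added before log2, the mean of a gene's probes, blank cells filled with the array's lowest value, leaving out the dimmest 25% of probes, eBayes with trend, the replicate number as a block and each array left out in turn. Plots used matplotlib 3.10.9 and Python 3.11.15.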

Additional observations from a re-analysis of the deposited data

How the results depend on the processing

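Id1 and Id3 were lower and Id2 and Id4 higher under each of the 10 alternatives run for them. Most of these could hardly turn a sign. With 1 array left out the signs were fixed, since the groups of these genes did not overlap. The mean of probes, filled blank cells and leaving out the dimmest 25% changed their values by little or nothing. Under the authors' scaling the log2 change was -0.996 for Id1, 2.23 for Id4, 0.44 for Tcf3 (the Tcfe2a probe) and 0.14 for Tcf12, whose sign turned; that scaling moved the median change of all genes from -0.01 to 0.17. With 16 units added before log2 it was 2.12 for Id2 and 1.94 for Id4. With 1 array left out, the change of Tcf4 ran from -0.14 to 0.31 and that of Tcf12 from -0.11 to 0.047. Tcf4 was not among the probes kept when the dimmest 25% were left out.

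The count of called genes, 3572 in all, ran from 1205 to 2409 with 1 array left out, where the lone array of a group is assumed to vary like the other group. The called genes of the BMP-SMAD list then numbered 3 to 5, those of the bHLH list 2 to 6 and those of the list of regulators and partners 1 to 4, or 3 with blank cells filled. Of the 20 called genes in the 4 lists, 8 were called whichever array was left out and 3 were lost each time. Replicate numbers in the labels pair no samples by any stated source, and deviations of same-numbered arrays from their group means correlated at -0.025 across genes. With the replicate number as a block 3102 genes were called, and among the named genes Bmpr1a and Ferd3l were lost. Probes under the array median, such as that of Tcf4, limit what could be detected.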
